A study of Mus musculus with 12 samples.

Results

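The 4 two-colour arrays described here set RNA of E14 cells depleted of p400 against RNA of EGFP control cells, and they are 4 of the 12 samples of the series. E14 is a line of mouse embryonic stem cells, the cells grown from the inner cell mass of the blastocyst that can form every tissue of the embryo. Both groups were E14 cells of the same kind, carried no engineered allele that the labels name, and were kept for 72 hr with Lipofectamine 2000 and esiRNA at 0.33 ng/µl. An esiRNA is a mixture of small interfering RNAs made by digesting a long double-stranded RNA, and it lowers a transcript without removing its gene. It was directed against p400 (gene Ep400) in one group and against EGFP, a reporter, in the other, so the controls carried the transfection as well. Each sample was 1 well of cells, and the series' text calls the 4 replicates biological. Each array carried both RNAs, with the p400 knockdown in Cy5 on replicates 1 and 3 and in Cy3 on replicates 2 and 4. The remaining 8 samples, single-colour arrays of EGFP control and Tip60 knockdown, were not analysed here.

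p400 is a chromatin remodelling ATPase of the SWI/SNF-like family and the scaffold of the Tip60-p400 complex, which exchanges the histone variant H2A.Z into nucleosomes. Tip60 (gene Kat5), the other catalytic subunit, acetylates histones H4 and H2A. Embryonic stem cells keep their identity through a set of transcription factors around Oct4, Sox2 and Nanog, while a small share of cells in culture enters a state that expresses genes of the 2-cell embryo. The study asked which genes depend on p400 in these cells.

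All 43379 spots other than the 1639 controls were read on each array, and between 27598 and 30752 of them were well above background in a channel. The 4 arrays lay on 1 slide with 1 scan time and each carried both RNAs, so slide and scan time were the same for knockdown and control, and with 4 arrays the precision of each value is limited. Over the genes tested, the log2 ratios of pairs of arrays correlated with r from 0.675 (replicates 1 and 4) to 0.846 (replicates 2 and 4), as a description across genes. Replicate 4 had the narrowest ratios, with an SD of 0.36 against 0.48, 0.51 and 0.53 on replicates 1 to 3. Of the 10 markers that define embryonic stem cells here, Fgf4 had no probe of that name and the other 9 were well above background in both RNAs on all arrays. Pou5f1, which encodes Oct4, had a mean log2 level of 13.7 in knockdown and 13.7 in EGFP RNA. The median log2 ratio of 11 housekeeping genes was -0.03 with loess, the main normalisation, and -0.35 with plain median centring of each array.

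A ratio here is always p400 knockdown over EGFP on the log2 scale, positive where knockdown RNA was higher. A value after ± is its standard error from the limma fit to the 4 arrays. That fit takes out a dye term and shares variance between genes, so this error can be smaller than the plain spread of the arrays would give. A gene was called, and is said to have risen or fallen, where limma gave a Benjamini-Hochberg adjusted p below 0.05 over all 18691 genes tested. Of these, 6577 were called (35.2%): 3766 rose (20.1% of the genes tested) and 2811 fell (15.0%). Those shares are the background for every count of list members below in the main fit. A count under another setting, or without an array, has the totals of that setting over all genes as its background. These totals are given in the text or the closing section. The calls were lopsided in size. The median called rise was 0.46 and the median called fall -0.38, but 532 genes (2.85%) rose at least 2-fold and 26 (0.139%) fell at least 2-fold. At least 4-fold rises numbered 128, at least 8-fold rises 54 and at least 16-fold rises 12, and no called fall reached 4-fold. Of the called rises 3544 were higher on all 4 arrays and of the called falls 2694 were lower on all 4, beside 28.5% and 24.5% of all genes tested that were higher or lower on all 4. The dye term of the same fit was called for 8 genes (0.0428%). The fit followed loess, which takes out the dye difference shared by spots of like intensity, so this count does not measure dye bias as a whole. Called genes whose arrays split by dye are described near the end. With replicates 1, 2, 3 and 4 left out in turn, 3207, 1914, 2775 and 3004 genes rose and 2541, 1228, 2016 and 1693 fell.

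**Figure D1:**
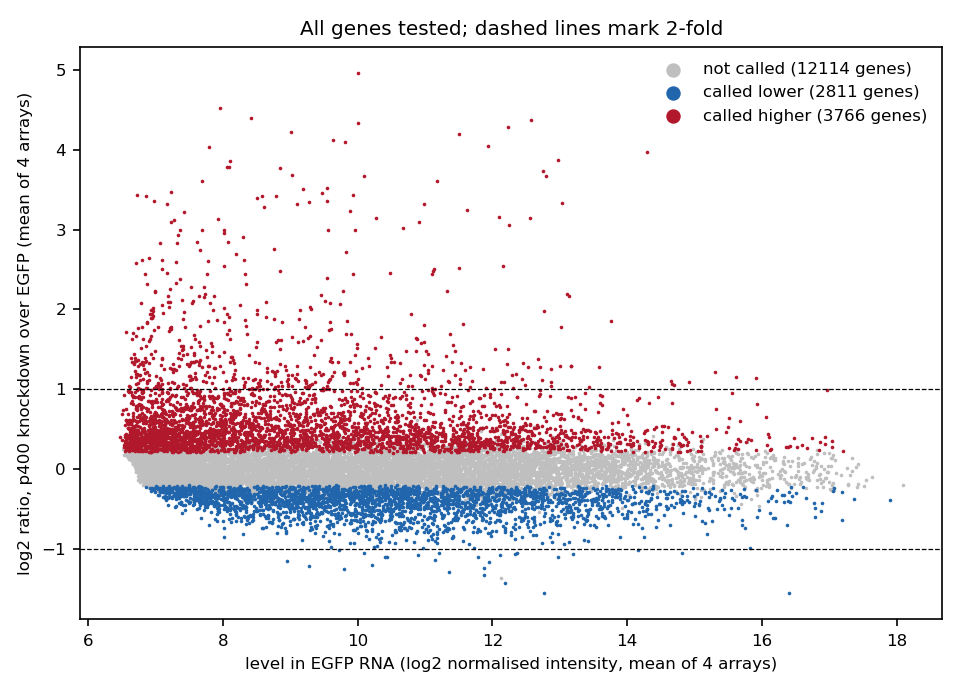
Mean log2 ratio of p400 knockdown over EGFP (vertical) against the mean log2 level in EGFP RNA (horizontal) for the 18691 genes tested, each point a gene, coloured by its limma call. Rises reach 4.96 and occur at most levels, while the deepest called falls end at -1.55.

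The lopsided sizes were not limited to genes that were dark in EGFP RNA. Of the 532 genes that rose at least 2-fold, 489 were well above background in EGFP RNA on all 4 arrays and 6 on none. When the genes tested were divided into 4 equal groups by their EGFP level, rises of at least 2-fold numbered 134, 200, 128 and 70 from the dimmest to the brightest group, and falls of at least 2-fold numbered 0, 1, 10 and 15. The share called lower was 2.16% in the dimmest group and between 15.3% and 22.4% in the other groups. Of all genes tested, 717 passed the filter on dim probes through knockdown RNA only and 456 through EGFP RNA only. Why the dimmest group held few falls was not tested. The 15.0% over all genes is thus only a rough background of falls for a list with dim members. On single arrays the 532 genes had medians of 1.45, 1.67, 1.72 and 0.98, the lowest on replicate 4, and the 26 deep falls had medians of -1.12, -1.26, -1.31 and -1.06.

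The way the arrays were normalised moved the split between rises and falls. With loess, the main setting, 57.3% of calls were rises. With plain median centring of each array, 2882 genes rose and 6784 fell (29.8% rises) and the median of all genes stood at -0.11. After the log ratios of all arrays were brought to 1 spread, 1881 rose and 547 fell (77.5% rises), and of the 205 called genes named here 109 lost their call, Ep400 (-0.71, adjusted p = 0.0741) and Kat5 (-0.63, adjusted p = 0.159) among them. Under that scaling 10 of 15 genes of the 2-cell embryo and 9 of 20 endoderm genes still rose, and none of 24 mitosis genes fell. Both settings moved the counts of many lists by more than 1.5 times. Bright genes moved downward under median centring, so a list's median is also given with that setting for several lists of bright genes whose median changed sign.

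The targeted gene was examined on each array first. The brightest Ep400 probe, on chromosome 5 at 109831052 to 109831111 of build mm7, gave ratios of -0.65, -0.77, -0.24 and -0.67 on replicates 1 to 4, a mean of -0.58 ± 0.09 (1.5-fold lower, adjusted p = 0.00556 by limma with Benjamini-Hochberg adjustment). Of the other Ep400 probes, the one at 109895499 to 109896068 averaged -0.72 but stood at 0.06 on replicate 1, and the one at 109921706 to 109921765 averaged 0.22 without a call. A further probe at 109905069 to 109905128 was not well above background in either RNA. The region the esiRNA targets is not given in the sources used here, and no annotation of build mm7 was used, so whether a probe lies in a targeted exon or a UTR was not examined. The signal of the brightest probe was thus lower on all 4 arrays, and least so on replicate 3.

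The 19 subunits of the complex were all measured in both RNAs. Besides Ep400, Kat5 (probe on chromosome 19 at 5498325 to 5498465 of build mm7) fell, with ratios of -0.28, -0.41, -0.27 and -0.76 and a mean of -0.43 ± 0.08, lowest on replicate 4. Trrap, the large scaffold that recruits the complex to transcription factors, rose, with 0.60, 0.70, 0.62 and 0.41 and a mean of 0.58 ± 0.08. Epc1, a subunit that links Tip60 to nucleosomes, rose by 0.54 and Ruvbl1, a AAA+ ATPase shared with other remodellers, by 0.41. Under median centring Epc1 and Ruvbl1 stood at 0.26 and 0.06 without a call. Together 3 of 19 rose and 5 fell. Leaving out replicates 1, 2, 3 and 4 in turn gave 5, 3, 3 and 3 rises and 3, 2, 2 and 2 falls, and counts in brackets after other lists have the same meaning. The list's median was -0.04.

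The gene lists and their members were chosen with earlier results of these data known, so the rank of a list is only a description. Genes of the 2-cell embryo held 13 rises of at least 2-fold, the most of the 45 gene lists examined. Their promoters are shown for the 3 members with the largest rises that the RefSeq table holds, because the members moved together: the 250 bases before the first transcript start of each gene in build GRCm38.p6, written 5′ to 3′ on the strand of the gene. They lie at chr4:90218570-90218819 (plus strand) for Zfp352, chr7:11005495-11005744 (plus strand) for Zscan4c and chr7:104856766-104857015 (plus strand) for Usp17la. Capitals mark the motif CCAAT, or ATTGG where it lies on the other strand.
Zfp352: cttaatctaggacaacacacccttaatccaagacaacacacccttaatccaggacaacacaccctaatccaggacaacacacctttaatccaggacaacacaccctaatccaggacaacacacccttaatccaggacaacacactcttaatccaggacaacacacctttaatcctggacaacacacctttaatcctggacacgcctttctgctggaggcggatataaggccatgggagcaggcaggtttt
Zscan4c: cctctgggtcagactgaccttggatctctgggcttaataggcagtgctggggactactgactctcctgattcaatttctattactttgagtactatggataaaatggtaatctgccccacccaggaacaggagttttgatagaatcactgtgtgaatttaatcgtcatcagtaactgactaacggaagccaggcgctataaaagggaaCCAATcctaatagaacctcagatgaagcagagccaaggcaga
Usp17la: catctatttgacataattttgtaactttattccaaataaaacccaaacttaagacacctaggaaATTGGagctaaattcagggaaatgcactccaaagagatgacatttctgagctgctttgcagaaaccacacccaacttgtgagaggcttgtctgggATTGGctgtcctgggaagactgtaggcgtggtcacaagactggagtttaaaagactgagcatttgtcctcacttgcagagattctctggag
The window of Zfp352 holds 9 copies of the unit GACAACACAC (in lower case above) and no CCAAT on either strand, and it was the 1 window of 27025 with 2 or more copies of that unit. Zscan4c has 1 CCAAT and Usp17la has 2. Of the 10 list members that the table holds, 7 contain CCAAT on either strand, against 34.46% of all 27025 windows. A match is a description of the letters and says nothing of what binds there.

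Of 24 listed 2-cell genes 15 were named on the array and all 15 passed the filter on dim probes. Of these, 14 rose (13, 13, 13 and 14) and none fell, with a median of 3.42. Zfp352, which encodes a zinc finger protein, had ratios of 4.49, 4.75, 5.01 and 3.81 on replicates 1 to 4. Its log2 levels ran from 12.4 to 12.6 in knockdown and from 7.5 to 8.6 in EGFP RNA, so the RNAs did not overlap, and the mean was 4.52 ± 0.17 (22.9-fold, adjusted p = 0.00022, limma with Benjamini-Hochberg adjustment), or 3.83 as the mean of its probes. Zscan4c, of the cluster that marks 2-cell-like cells and protects telomeres, had 3.402, 4.78, 5.24 and 4.08, with levels of 16.1 to 17.5 against 11.99 to 12.9. It spread more between arrays than Zfp352, and its mean was 4.38 ± 0.29. Usp17la, a deubiquitinase of a multicopy family, had 3.63, 4.62, 4.79 and 3.78, and its relative Usp17lb 3.24, 3.60, 4.16 and 2.70. Both were highest on replicate 3. Tcstv3 and Tcstv1, short proteins of a cluster named for the 2-cell stage, averaged 4.29 ± 0.23 and 3.67 ± 0.15, but each probe also matches other genes of the family, so the 2 values may share transcripts.

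Other members of the list rose as well. Arg2, the mitochondrial arginase, had 3.50, 4.02, 4.45 and 3.14, and Sp110, a nuclear body protein, 3.72, 3.75, 4.23 and 3.03. Zfp809, a zinc finger protein that represses retroviruses in stem cells, had 3.11, 3.74, 3.62 and 2.96, with 1.95 as the mean of its probes. In all 3 genes replicate 4 was lowest and replicate 2 or 3 highest, and no level in knockdown RNA was as low as the highest in EGFP RNA. By array, the medians of the 15 members were 3.24, 3.60, 4.16 and 2.96. Eif1a, a translation initiation factor of which copies are transcribed at the 2-cell stage, was the 1 tested member without a call, at -0.22 for its brightest probe and 1.01 as the mean of its probes, which was called. In these bulk samples a change in the number of cells of a type and a change in RNA per cell cannot be told apart, which holds for every list below. The plot of 2-cell and heat shock genes shows each array's value.

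**Figure D2:**
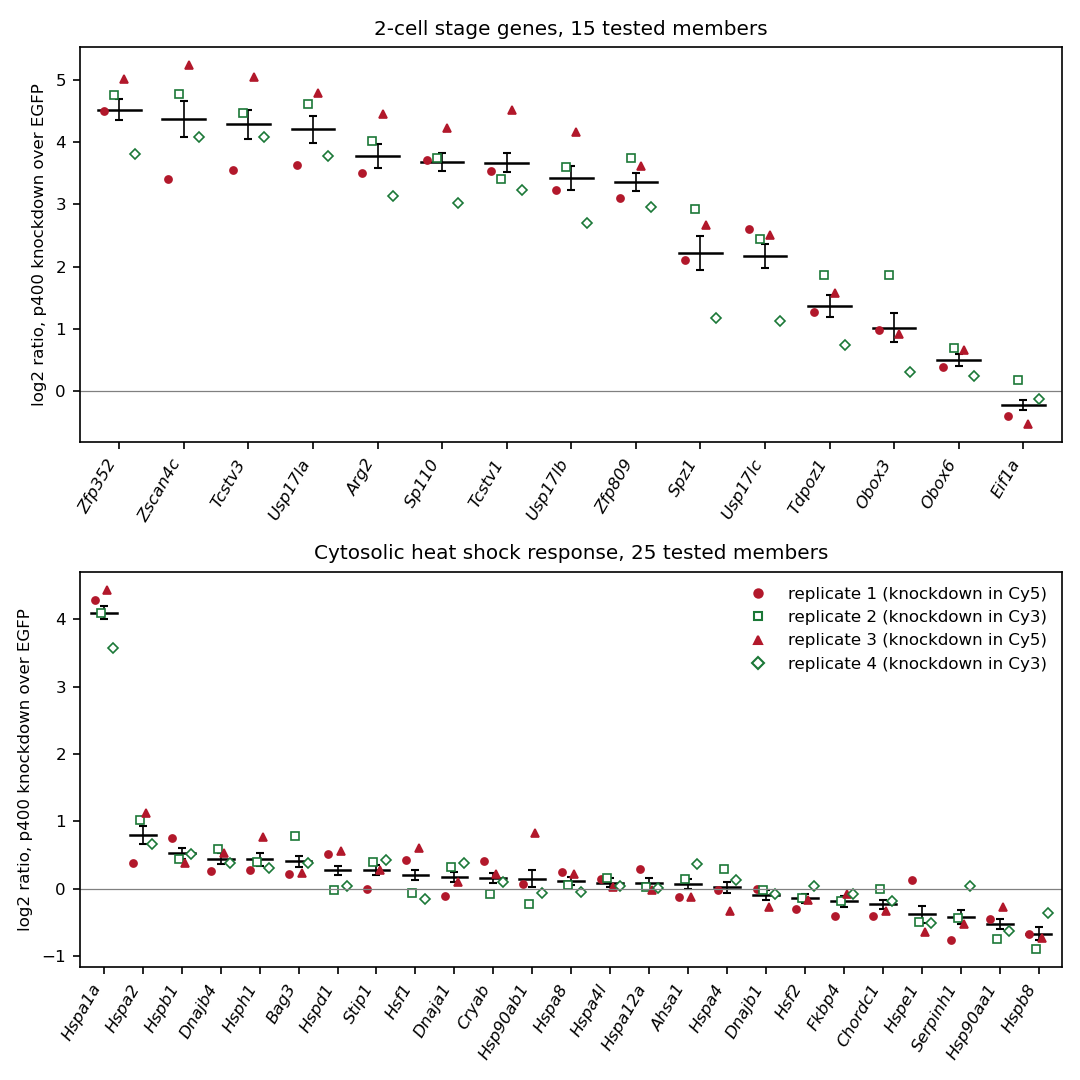
Log2 ratio of p400 knockdown over EGFP (vertical) for each tested member, ordered by mean. The 2-cell list is at the top and the cytosolic heat shock list at the bottom. Symbols are the 4 arrays, filled where knockdown RNA was in Cy5. Bars show the mean and whiskers its standard error from the limma fit. Of the 15 2-cell genes 14 were called higher, whereas Hspa1a stands alone among the heat shock genes, whose next member averaged 0.80.

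Oocyte genes and the Pramel family, leucine-rich repeat proteins made in germ cells and early embryos, moved the same way at smaller size. Of 20 listed, 18 were on the array and 12 bright enough to test. Of those 12, 9 rose (8, 6, 7 and 10) and none fell, with a median of 0.39. Pramel4 had ratios of 1.82, 2.64, 2.65 and 1.02, Pramel7 2.10, 1.79, 1.68 and 1.45 and Pramel6 1.05, 1.27, 1.01 and 0.50. Replicate 4 was lowest for each. Nlrp4f, an oocyte protein of the NLR family, averaged 1.22 ± 0.12 and Zp3, a glycoprotein of the egg coat, 0.49 ± 0.07. Among the largest rises of all genes were 3 further Pramel genes, Pramel39 (3.46 ± 0.25), Pramel37 (3.44 ± 0.26) and Pramel48 (3.33 ± 0.26). The family's copies are alike, so their probes may share transcripts. Ooep, a protein of the oocyte's subcortical complex outside the list, fell, with -0.68, -0.95, -0.85 and -0.94.

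Germ line genes rose more often than they fell. Of 33 tested, 17 rose (15, 12, 11 and 15) and 4 fell (4, 2, 5 and 3), with a median of 0.27. Under median centring 12 rose and 9 fell, with a median of 0.13, while 2882 of all 18691 genes rose and 6784 fell. Dazl, an RNA-binding protein that licenses germ cells, had ratios of 2.20, 1.95, 2.51 and 1.62 and levels of 11.7 to 11.98 against 9.3 to 10.2 in EGFP RNA. Stra8, which is induced by retinoic acid as meiosis begins, had 1.33, 1.56, 1.32 and 1.28, with little spread between arrays. Sycp1, of the synaptonemal complex that joins paired chromosomes, rose, with 1.29, 1.71, 1.39 and 1.03, while Sycp3, of the same complex, fell, with -1.11, -1.18, -1.34 and -0.998. Slc25a31, the ADP/ATP carrier of the testis, averaged 1.36 ± 0.12 and Tex101, a sperm surface protein, 1.11 ± 0.11. Rec8, the meiotic cohesin, averaged -0.57 ± 0.09, and Ddx4, an RNA helicase of germ cells, was at 0.03 ± 0.09 without a call. Thus the list did not move as 1 block: 2 proteins of 1 complex went opposite ways.

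Hspa1a, the inducible Hsp70 chaperone, was the only member of the cytosolic heat shock list to reach 2-fold. The promoters of the list's largest rise and largest fall are shown to set them beside the values: Hspa1a at chr17:34972157-34972406 (minus strand) and Hspb8 at chr5:116422865-116423114 (minus strand), the 250 bases before the first start in build GRCm38.p6 from the RefSeq table, 5′ to 3′. In Hspa1a capitals mark a heat shock element, a GAA and its inverse spaced by any bases, searched as GAANNTTC or TTCNNGAA, and then CCAAT on the other strand, and in Hspb8 they mark TTTGAA, the cell cycle homology region.
Hspa1a: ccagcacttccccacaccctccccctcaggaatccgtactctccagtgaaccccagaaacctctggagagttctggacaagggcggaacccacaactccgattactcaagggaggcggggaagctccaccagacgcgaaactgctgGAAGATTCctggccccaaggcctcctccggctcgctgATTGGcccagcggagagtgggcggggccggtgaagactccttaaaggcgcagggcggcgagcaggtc
Hspb8: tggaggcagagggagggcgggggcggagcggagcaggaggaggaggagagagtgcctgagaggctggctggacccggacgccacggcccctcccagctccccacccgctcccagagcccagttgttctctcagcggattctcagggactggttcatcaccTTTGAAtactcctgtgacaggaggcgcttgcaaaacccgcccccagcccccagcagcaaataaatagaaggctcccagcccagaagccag
That heat shock element was in 6 of 20 list members and in 12.91% of all 27025 windows, and Hspb8 had none in this window. The window of Hspa1a is the same as that of its neighbour Hspa1b at 247 of 250 positions.

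Hspa1a had ratios of 4.29, 4.09, 4.44 and 3.57 on replicates 1 to 4, and its levels of 13.7 to 14.2 in knockdown RNA did not overlap those of 9.4 to 10.3 in EGFP RNA. The mean was 4.10 ± 0.10 (17.1-fold, adjusted p = 0.000114, limma with Benjamini-Hochberg adjustment). Its other 3 probes averaged 3.91, 2.93 and 1.46, and the last 2 of these also match Hspa1b, so the share of each gene could not be told apart. Hspa2, an Hsp70 of the testis, was next at 0.80 ± 0.13, with 0.38, 1.02, 1.12 and 0.66, and Hspb1, the small chaperone Hsp25, averaged 0.53 ± 0.08 (0.18 without a call under median centring). Hsp90aa1, the inducible Hsp90, fell, with -0.45, -0.75, -0.27 and -0.63, and so did Hspb8, a small heat shock protein, with -0.67, -0.89, -0.73 and -0.36. Dnajb1, the Hsp40 partner of Hsp70, was at -0.09 ± 0.07 without a call. In all 8 of 25 rose (9, 3, 5 and 6) and 4 fell (3, 2, 3 and 3), with a median of 0.12 (-0.18 under median centring).

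Other stress programmes were mixed. In the list of endoplasmic reticulum stress and the integrated stress response, which slows translation through eIF2α, 6 of 28 rose (4, 3, 3 and 4) and 10 fell (11, 8, 10 and 9). Its median was 0.03 (-0.26 under median centring). Dnajb9, a chaperone of the endoplasmic reticulum, had 1.33, 1.97, 2.01 and 1.37 and Atf3, a stress-induced transcription factor, 0.79, 0.94, 1.38 and 0.45. Hspa5, the central chaperone BiP, was at 0.20 ± 0.07 without a call. Among the falls, Trib3, a pseudokinase, had -0.58, -0.49, -1.57 and -0.89, Ddit3, which encodes CHOP, -0.51, -0.79, -0.52 and -0.53, and Nupr1, a stress-induced nuclear protein, -0.40, -0.77, -0.65 and -0.42. Each of these 3 was below 0 on all 4 arrays, and Trib3 was lowest on replicate 3. Gdf15, a secreted stress factor, averaged -0.60 ± 0.08.

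Of 25 genes of p53 and its targets, 6 rose (5, 2, 5 and 5) and 8 fell (7, 5, 6 and 4), with a median of -0.06. Pmaip1, the proapoptotic protein Noxa, had 0.54, 1.46, 1.60 and 0.90, higher on all 4 arrays but with a spread of over 1 between replicates 1 and 3. Bbc3, which encodes the proapoptotic Puma, fell, with -0.65, -0.43, -0.65 and -0.39, as did Perp, a desmosomal p53 target (-0.70, -0.53, -0.80 and -0.51), and Apaf1, which assembles the apoptosome (-0.44 ± 0.07). Mdm2, the ligase that degrades p53, was at -0.10 ± 0.10 without a call. Among 17 genes of oxidative stress, Nqo1, a quinone reductase of the Nrf2 response, averaged 0.82 ± 0.14, while the glutathione transferases Gstm1 (-0.70 ± 0.09) and Gsta4 (-0.66 ± 0.08) fell. In that list 2 rose (4, 1, 2 and 1) and 3 fell (5, 2, 2 and 3), shares near or below the background.

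Other large rises lay outside the lists or are described here for their size. A530040E14Rik, a transcript without a protein name, had the largest of all, with ratios of 5.04, 5.02, 5.39 and 4.40 and levels of 14.8 to 15.1 against 9.4 to 10.5. 0610040J01Rik had 4.08, 4.64, 4.81 and 3.81. Krtap4-13, a keratin-associated protein of the hair shaft, had 4.44, 4.70, 4.66 and 3.78, and its relatives Krtap5-1 and Krtap5-4 averaged 2.91 ± 0.17 and 2.75 ± 0.14. On all of these replicate 4 was lowest and no array fell below 2. Pdgfrl, a secreted protein like the PDGF receptor, averaged 3.67 ± 0.12, Mgll, the lipase of monoacylglycerols, 3.42 ± 0.18, and Lgals4, a gut galectin, 3.32 ± 0.14. Channels and receptors among them were Cacna1s, the calcium channel of skeletal muscle (3.23 ± 0.15, and 2.35 as the mean of its probes), Dcc, the netrin receptor (2.99 ± 0.16), and Grm5, a glutamate receptor (2.93 ± 0.21). The olfactory receptors Olfr713 and Olfr815 averaged 2.84 ± 0.18 and 2.62 ± 0.21, the latter above background in EGFP RNA on 3 of 4 arrays with a probe that also matches Olfr814. Fgf1, a growth factor, averaged 2.69 ± 0.16, and 1.16 as the mean of its probes.

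Further large rises were measured for genes with nuclear products. Cwc22, a splicing factor, had 3.01, 3.39, 3.26 and 2.97, and Pif1, a DNA helicase, 3.12, 2.86, 3.97 and 2.65. Nelfa, a subunit of the factor that pauses RNA polymerase II, had 2.38, 2.79, 2.86 and 2.17, Ercc4, the nuclease XPF of nucleotide excision repair, 2.62, 2.61, 2.81 and 2.05, and Rfxap, a subunit of the RFX complex that drives MHC class II genes, 2.37, 2.43, 3.07 and 2.15. All 5 were higher on every array, by at least 2 on the log2 scale. Cab39, a scaffold of the kinase Lkb1, averaged 2.48 ± 0.16. As the mean of all probes of the gene, Ercc4, Rfxap and Cab39 stood at 1.31, 1.16 and 1.33.

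The network of pluripotency factors changed in both directions. Of 28 tested members 8 rose (8, 6, 7 and 7) and 8 fell (6, 3, 4 and 4), with a median of 0.07 (-0.26 under median centring). The core factors stayed near 0. Pou5f1 had -0.0005, 0.51, -0.04 and -0.29, and Nanog -0.19, -0.10, 0.65 and 0.07, and neither was called, with arrays on both sides of 0. Sox2 had -0.29, -0.18, -0.20 and -0.16 and a mean of -0.21 ± 0.06, with adjusted p = 0.0479 by limma, and leaving out any array lost the call (adjusted p of 0.122, 0.207, 0.0829 and 0.159 without replicates 1 to 4). Among the falls, Nr5a2, a nuclear receptor that can replace Oct4 in reprogramming, had -0.98, -0.57, -0.42 and -0.43, and Tfcp2l1 -0.49, -0.38, -0.66 and -0.58, though the mean of all Tfcp2l1 probes was -0.21 without a call. Lefty1, a secreted Nodal antagonist, had -0.55, -0.54, -0.56 and -0.39. All 3 were lower on every array. Esrrb, an orphan nuclear receptor of the naive network, averaged -0.25 ± 0.08, and leaving out any array lost that call (adjusted p of 0.134, 0.0800, 0.0831 and 0.234 without replicates 1 to 4, limma).

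The rises of the list were larger than its falls. Dppa2, a DNA-binding protein of stem cells and germ cells, had 0.84, 1.23, 1.36 and 1.28, and Fbxo15, an F-box gene used as a reporter of pluripotency, averaged 1.09 ± 0.10. Rif1, a replication timing and telomere protein, had 0.66, 0.62, 1.74 and 1.45, high on replicates 3 and 4 and lower on 1 and 2. Dnmt3l, the partner of the de novo DNA methyltransferases, had 0.80, 0.98, 0.74 and 0.80. The marker Dppa5a had 0.37, -1.25, 0.23 and -0.92: its sign followed the dye, above 0 on the arrays with knockdown RNA in Cy5 and below 0 on the others, although the fit called its mean of -0.39 ± 0.08, a call lost without replicate 2 (-0.31) or 3 (-0.36).

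**Figure D3:**
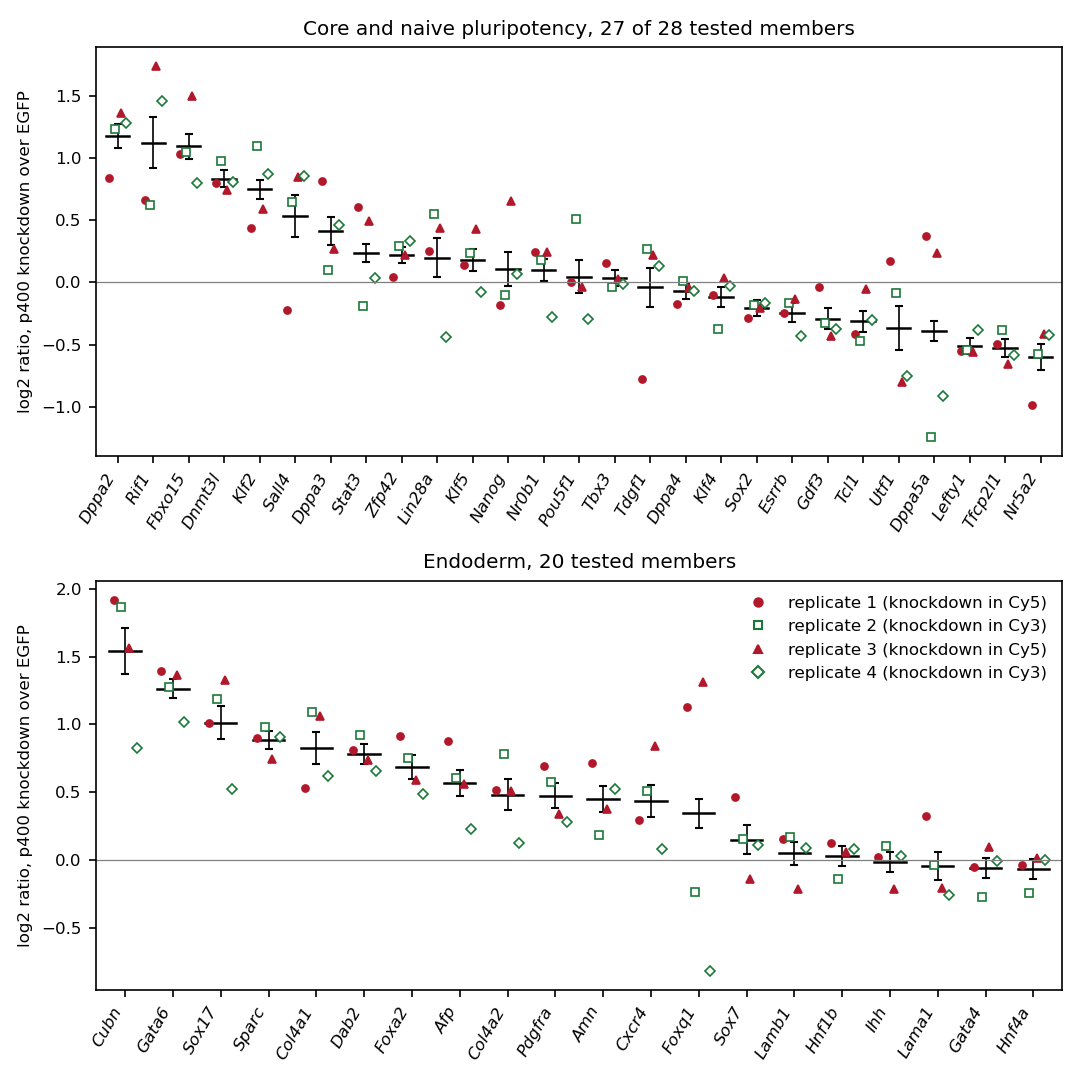
Log2 ratio of p400 knockdown over EGFP (vertical) for 27 of the 28 tested pluripotency genes (top) and the endoderm genes (bottom), ordered by mean. Symbols are the 4 arrays, filled where knockdown RNA was in Cy5. Bars show the mean and whiskers its standard error from the limma fit. Pluripotency genes run from 1.18 (Dppa2) to -0.60 (Nr5a2) around a median of 0.07, and of the 20 endoderm genes 12 were called higher and none lower.

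Endoderm genes rose more often than the background. Of 20 tested 12 rose (11, 9, 11 and 12), against a background of 20.1%, and none fell, with a median of 0.46. Of the 20, 16 were well above background in EGFP RNA on all 4 arrays. Some were dim there, such as Foxa2 at levels of 6.7 to 7.5, and falls were few among all dim genes. Without the replicate block, the pairing of both RNAs on an array, 7 rose, and Cubn and Col4a1 lost their calls. Gata6, the factor that sets up primitive endoderm, had 1.40, 1.27, 1.37 and 1.02, and Sox17, a factor of primitive and definitive endoderm, 1.01, 1.19, 1.33 and 0.52. Foxa2, a pioneer factor of endoderm, had 0.91, 0.76, 0.59 and 0.48. Cubn, an endocytic receptor of visceral endoderm, had 1.92, 1.87, 1.57 and 0.82, the largest rise of the list. Replicate 4 was lowest for each, yet above 0. Among products of parietal endoderm, Sparc, a matrix glycoprotein, averaged 0.88 ± 0.07 and Col4a1, a chain of basement membrane collagen, 0.83 ± 0.12. Over the arrays, levels in knockdown and EGFP RNA overlapped for Gata6, Foxa2, Cubn and Col4a1 but not for Sox17 and Sparc.

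Mesoderm and primitive streak genes rose in 9 of 21 cases (7, 7, 7 and 9) and fell in 1 (1, 1, 1 and 1), with a median of 0.19. Snai1, the repressor that drives cells out of an epithelium, had 1.98, 2.67, 2.34 and 1.30 and levels of 9.3 to 10.6 against 7.7 to 8.0, and its relative Snai2 1.08, 1.35, 1.41 and 0.71. The homeobox genes Msx2 and Msx1, targets of BMP, averaged 0.87 ± 0.13 and 0.79 ± 0.12. The streak genes T (brachyury) and Eomes were at 0.05 ± 0.07 and 0.17 ± 0.07 without a call, and Tbx6, of paraxial mesoderm, fell by 0.46. The largest rises of the list were thus Snai1 and Snai2, and the streak genes named did not pass the test.

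Trophectoderm genes rose in 10 of 21 cases (9, 8, 8 and 10) and fell in 3 (3, 2, 2 and 2). The simple keratins Krt8 and Krt18, a filament pair of the trophectoderm, moved together, with 0.85, 1.07, 0.77 and 0.90 and 0.87, 1.05, 0.85 and 0.82. Esx1, a placental homeobox factor, averaged 0.84 ± 0.14, and Tfap2c, a factor of trophectoderm and germ cells, fell, with -0.64, -0.87, -0.88 and -0.36. The imprinted Phlda2, which limits placental growth, averaged -0.73 ± 0.11. Among 18 epiblast and neural genes 6 rose (7, 3, 3 and 7) and 3 fell (5, 2, 3 and 2). Pou3f1 (Oct6), a factor of the primed epiblast, had 1.02, 1.48, 1.62 and 0.87, and Fgf5, its classical marker, 0.77, 0.92, 0.99 and 0.29, while Otx2 was at -0.19 ± 0.10 without a call. Neurod1, a neuronal helix-loop-helix factor, and Ncam1, an adhesion molecule, fell, with means of -0.85 ± 0.10 and -0.73 ± 0.08.

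Of 15 genes of keratins and keratin-associated proteins tested 10 rose (8, 6, 9 and 8) and none fell. Besides those named above, Krt23, an epithelial keratin, had 2.03, 2.95, 2.66 and 1.37. Of 37 Hox genes on the array 21 could be tested, and 5 rose (5, 3, 5 and 4). Hoxd13, the most posterior gene of its cluster, had 1.24, 1.91, 1.74 and 0.61 and Hoxb2, an anterior one, 1.29, 1.71, 1.202 and 0.53, and the share of rises lay near the background. Without background subtraction 14 of the 21 rose, and with the deposited LogRatio 11. Of all 18691 genes 4827 and 3893 rose under these settings. Of the 24 imprinted genes 9 rose (9, 9, 9 and 10) and 6 fell (7, 5, 5 and 4). Igf2, a fetal growth factor, had 1.83, 1.999, 1.90 and 1.65, and its levels of 11.3 to 11.5 stood above those of 9.5 to 9.7 in EGFP RNA. Its neighbour H19, a noncoding RNA expressed from the opposite parental allele, also rose, by 0.63, and Igf2r, the receptor that clears Igf2, by 0.58 (0.28 without a call under median centring). Magel2, a gene of the Prader-Willi region, had 2.20, 2.83, 3.05 and 1.25. Grb10, an adaptor that restrains growth signals, fell, with -1.39, -1.01, -0.77 and -1.12, as did the noncoding RNA Rian, with -1.099, -0.55, -0.46 and -1.07.

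Markers of cells that could share a culture were read as well. Embryonic stem cells are often grown on feeder fibroblasts, and the labels do not say whether these were. Of 16 fibroblast markers tested 9 rose (10, 8, 8 and 8) and 2 fell (2, 2, 3 and 1), with array medians of 0.50, 0.38, 0.59 and 0.10. Col1a1, the main fibroblast collagen, had 0.58, 1.02, 0.98 and 0.64, Thy1, a surface antigen, 1.46, 1.504, 1.75 and 0.99, and Ccn2, a YAP target, 0.87, 1.63, 1.60 and 1.24. Col3a1 was at -0.07 ± 0.07 without a call, and the matrix genes Lum, Dcn, Postn, Lox and Fap were too dim to test. Tagln, a smooth muscle protein, fell by 0.62. Of 17 blood and macrophage markers tested 8 rose (7, 4, 7 and 7) and none fell. Clec10a, a lectin of macrophages, had 4.23, 4.44, 4.48 and 2.99 and Csf2rb, the shared receptor chain of GM-CSF, 3.54, 4.05, 4.36 and 3.14, with 1.87 as the mean of the probes of Csf2rb. The defining genes Ptprc (CD45), Lyz2, Adgre1, Tyrobp and Spi1 were too dim to test, Csf1r was at 0.05 ± 0.06 and Cd68 at -0.09 ± 0.08, both without a call. The part of such cells in the results was not tested.

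Signals that maintain or end self-renewal changed gene by gene. In the Nodal and BMP list 5 of 26 rose (5, 5, 6 and 5) and 10 fell (8, 5, 6 and 4). The Id genes, BMP targets that block differentiation factors, were the largest rises. Id3 had 2.28, 1.92, 2.29 and 1.93, Id1 1.86, 1.66, 1.36 and 1.70 and Id2 0.94, 1.18, 0.84 and 0.58. The levels of Id3, 11.4 to 11.9 in knockdown and 9.2 to 9.7 in EGFP RNA, did not overlap. Of the ligands, Nodal rose, with 0.60, 0.78, 0.80 and 0.74, and Inhbb, the βB subunit of activin, fell, with -0.97, -1.14, -1.08 and -1.11, with little spread between arrays. Of the receptors, Bmpr1a averaged -0.79 ± 0.09 and Acvr1b, which serves activin and Nodal, -0.43 ± 0.07 (-0.16 without a call as the mean of its probes). Lefty1, a target of Nodal given above, fell while the ligand rose.

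Wnt signalling stabilises β-catenin and supports self-renewal. Of 23 genes tested 9 rose (8, 6, 7 and 7) and 2 fell (2, 1, 1 and 1). The target and feedback genes Axin2, Lef1 and Nkd1 averaged 0.70 ± 0.10, 0.90 ± 0.11 and 0.57 ± 0.09, and Lef1 was higher on all 4 arrays, with 0.64, 0.69, 1.21 and 1.04. Dkk1, a secreted antagonist and target, had 1.62, 1.45, 1.58 and 0.70 with EGFP RNA above background on 3 of 4 arrays, and Rspo1, a secreted enhancer, 1.25, 1.18, 1.18 and 0.84. The coreceptor Lrp5 fell, with -0.78, -0.27, -0.73 and -0.68, and Sfrp4, a secreted antagonist outside the list, fell by 1.01. In the LIF-STAT3 and FGF-ERK list 6 of 20 rose (6, 4, 6 and 7) and 4 fell (3, 4, 4 and 3). The ERK targets Egr1 and Spry2 had 1.16, 0.85, 0.71 and 0.71 and 0.68, 0.85, 0.93 and 0.89, while Ier3, an immediate early gene, had -0.41, -1.03, -0.98 and -0.88 and Bcl3, an IκB-like LIF target, -0.52, -0.39, -0.98 and -0.57. The LIF receptor Lifr and the target Socs3 were at 0.09 ± 0.08 and 0.25 ± 0.08 without a call.

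Genes of junctions and of the actin skeleton changed in both directions. Of 25 junction genes 2 rose (2, 1, 2 and 2) and 8 fell (8, 4, 6 and 6). The tight junction proteins Cldn4, Cldn7 and Tjp3 averaged -0.80 ± 0.10, -0.57 ± 0.08 and -0.57 ± 0.09, and Cldn4 had -0.90, -1.099, -0.60 and -0.60. E-cadherin (Cdh1) and Epcam, which hold stem cell colonies together, were at -0.10 ± 0.08 and 0.13 ± 0.08 without a call. Gjb5, a gap junction gene outside the list, fell as well, with -0.82, -1.36, -1.32 and -0.84. Of 26 actomyosin genes and targets of the factor SRF 6 rose (8, 3, 4 and 5) and 9 fell (10, 6, 9 and 7). The falls included the contractile genes Acta1 (-0.69 ± 0.07), Myl9 (-0.66 ± 0.11), Tpm1 (-0.56 ± 0.09) and Cnn2 (-0.49 ± 0.07), and the rises the early response genes Fos (0.60 ± 0.11) and Egr1. Of the matrix genes, Fn1 (fibronectin) fell, with -0.82, -0.53, -0.69 and -0.69, Mmp14, a membrane protease, fell, with -0.39, -0.92, -1.04 and -1.33, and Adamts1, another protease, rose, with 1.69, 1.62, 1.99 and 0.68. In that list 5 of 16 rose (4, 3, 4 and 4) and 4 fell (3, 3, 3 and 3).

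Regulators of the G1 phase changed in opposite directions within families. Of 22 tested 7 rose (5, 4, 4 and 4) and 7 fell (7, 6, 8 and 6). Cyclin D1 (Ccnd1) fell on every array, with -0.96, -1.03, -0.91 and -0.75, and cyclin D2 (Ccnd2) rose on every array, with 0.95, 1.27, 1.57 and 0.90, while cyclin D3 (Ccnd3) was at 0.10 ± 0.08 without a call. Of the inhibitors of cyclin-dependent kinases, Cdkn1c (p57) had 1.71, 1.53, 1.73 and 1.35 and Cdkn2b (p15) 0.72, 1.05, 0.91 and 0.45, and Cdkn1b (p27) fell, with -0.42, -0.90, -0.72 and -0.61. The kinases themselves were lower: Cdk6, Cdk2 and Cdk4 averaged -0.66 ± 0.07, -0.61 ± 0.07 and -0.45 ± 0.07. For Ccnd1 and Cdkn1c the levels in the RNAs did not overlap.

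Mitosis genes fell more often than the background. Of 24 tested 1 rose (2, 0, 1 and 0) and 9 fell (7, 4, 7 and 5), with a median of -0.20. Under median centring 21 fell, and with the arrays brought to 1 spread none. Of all 18691 genes 6784 and 547 fell under these settings. Cdc25c, the phosphatase that starts mitosis, had -0.64, -0.72, -0.60 and -0.58, and Mki67, the proliferation antigen, -0.75, -0.20, -0.73 and -0.34, lower on the arrays with knockdown RNA in Cy5. Nusap1, a spindle protein, averaged -0.47 ± 0.08. No member changed 2-fold. Of the promoters of 19 members that the RefSeq table holds, 17 contained CCAAT, against 34.46% of all windows, whichever way the members moved, and 6 contained TTTGAA, against 16.27%. Of 23 replication genes 1 rose (1, 1, 1 and 1) and 4 fell (3, 0, 1 and 2). Of 25 repair genes 2 rose (2, 0, 1 and 0) and 8 fell (5, 3, 7 and 4), among them Xrcc5 (Ku80) at -0.58 ± 0.08 and Nbn, a sensor of breaks, at -0.47 ± 0.08.

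With loess, glycolysis and hypoxia genes had the largest share of falls of the 45 lists. Of 26 tested 13 fell (12, 9, 10 and 9), against 15.0% of all genes, and 2 rose (2, 0, 1 and 1), with a median of -0.29. By array the medians were -0.20, -0.37, -0.28 and -0.42. Ldhb, the heart-type subunit of lactate dehydrogenase, had -1.34, -1.89, -1.35 and -1.63, with levels of 14.5 to 15.1 in knockdown and 16.3 to 16.5 in EGFP RNA. Bnip3, a mitophagy gene induced by hypoxia, had -1.12, -0.92, -0.69 and -0.51, and Egln1, the prolyl hydroxylase that senses oxygen, -0.42, -1.12, -0.80 and -0.60. Of the pathway's enzymes, Gpi1 (phosphoglucose isomerase) had -0.19, -0.85, -0.85 and -0.93 and Pgk1 (phosphoglycerate kinase) -0.20, -1.103, -0.17 and -0.93, with smaller falls of Pgk1 on the Cy5 arrays. Eno1 (enolase) averaged -1.01 ± 0.19, with -1.17, 0.01, -1.75 and -1.13, so that replicate 2 stood at 0, and its probe also matches Eno1b. With the 4 arrays brought to 1 spread, 2 of the 26 fell, fewer than 4 of 25 junction genes, and the median was -0.39. Under median centring 22 fell, a smaller share than that of the mitosis list. Of all 18691 genes 547 fell with the arrays brought to 1 spread and 6784 under median centring.

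**Figure D4:**
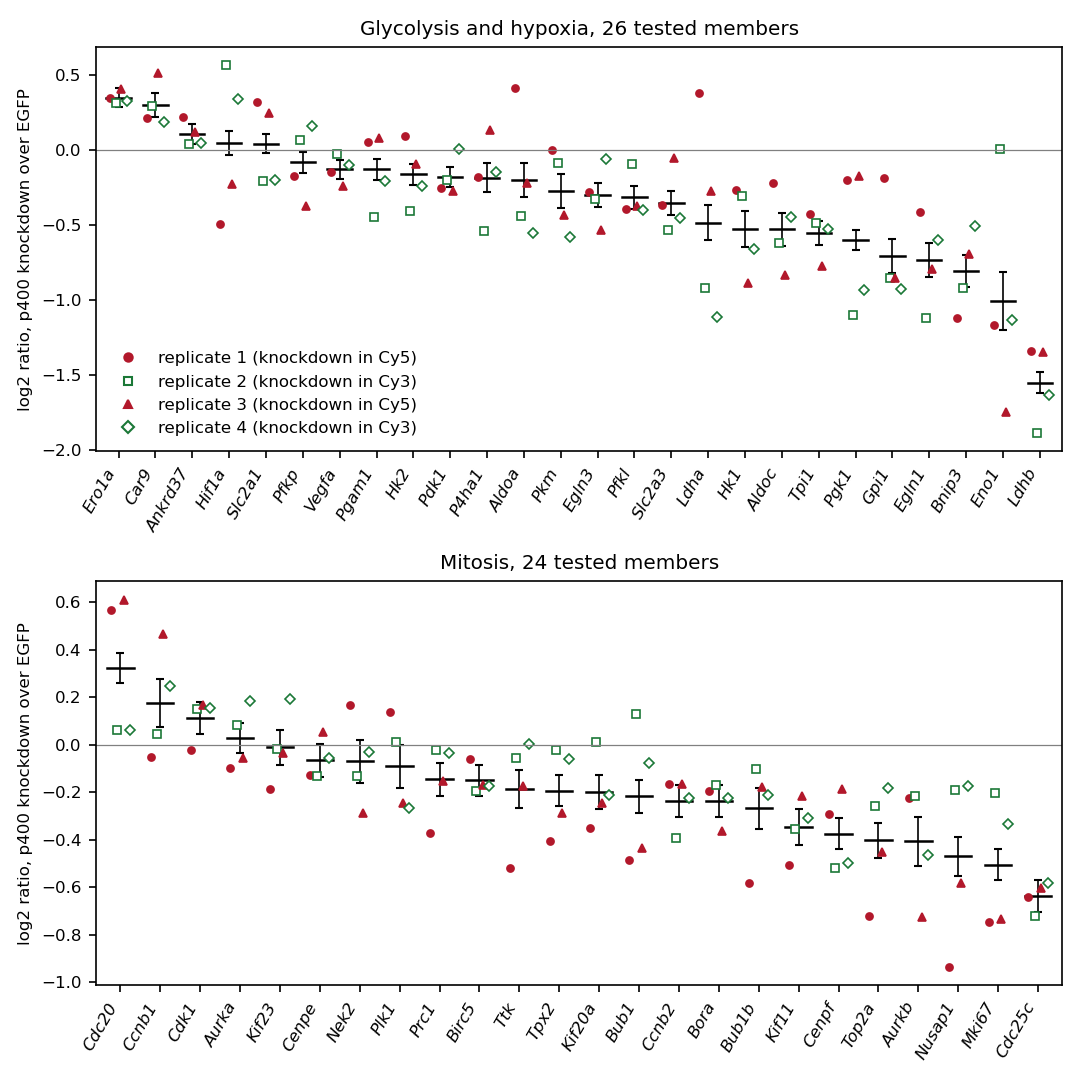
Log2 ratio of p400 knockdown over EGFP (vertical) for the tested glycolysis and hypoxia genes (top) and mitosis genes (bottom), ordered by mean. Symbols are the 4 arrays, filled where knockdown RNA was in Cy5. Bars show the mean and whiskers its standard error from the limma fit. Of the 26 glycolysis and hypoxia genes 13 were called lower, from Ldhb at -1.55 upward, and 9 of the 24 mitosis genes.

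Other metabolic lists had fewer falls with loess. Of 31 genes of oxidative phosphorylation 1 rose (1, 1, 1 and 1) and 4 fell (8, 1, 2 and 2), and of 22 genes of cholesterol and fatty acid synthesis 4 rose (4, 0, 0 and 0) and 3 fell (3, 2, 3 and 3). Hmgcs1, the first enzyme committed to the mevalonate pathway, averaged -0.48 ± 0.07. Of 26 lysosome and autophagy genes 4 rose (2, 0, 0 and 2) and 3 fell (3, 3, 2 and 2), Lamp2, a lysosomal membrane protein, at -0.64 ± 0.10. Under median centring 25, 13 and 17 members of these 3 lists fell and none rose, while 6784 of all 18691 genes fell and 2882 rose. Of 30 proteasome genes 2 rose (3, 2, 2 and 2), both subunits of the immunoproteasome: Psmb9 had 0.90, 0.52, 0.85 and 0.55 and Psmb8 0.69, 0.28, 0.48 and 0.28.

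Chromatin genes showed a few strong changes among many small ones. Of 15 histone genes 6 rose (6, 5, 6 and 5) and 2 fell (2, 2, 2 and 2), with a median of 0.02 (-0.34 under median centring). H4c9, a gene of histone H4, had 1.99, 2.49, 2.57 and 1.86, H2bc4, of H2B, 1.92, 2.09, 1.51 and 1.06, and H1f2, of linker histone H1, 0.88, 1.19, 1.24 and 0.75. Both genes of macroH2A, the variant of the inactive X chromosome, fell, Macroh2a1 with -0.42, -0.86, -0.56 and -0.58 and Macroh2a2 with -0.82, -0.45, -0.82 and -0.27. The H2A.Z genes H2az1 and H2az2, which encode the variant that p400 loads, were at -0.06 ± 0.07 and -0.10 ± 0.08 without a call. Histone genes are alike in sequence, so a probe may read more than 1 of them.

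Of 24 other ATP-dependent remodelling subunits 5 rose (7, 3, 3 and 4) and 6 fell (5, 3, 8 and 4). Ino80, the ATPase of the complex that also handles H2A.Z, rose, with 0.69, 1.32, 1.48 and 1.49, and Smarca2, the Brm ATPase, rose, with 0.95, 1.099, 1.02 and 0.31. Smarca4 (Brg1) and Chd1, remodellers that stem cells need, were at 0.19 ± 0.06 and -0.20 ± 0.16 without a call. Of 22 acetyltransferases and deacetylases 1 rose (3, 1, 1 and 1) and 4 fell (3, 2, 3 and 4). Kat8, the acetyltransferase of H4 lysine 16 and a relative of Tip60, fell, with -0.62, -0.43, -0.66 and -0.40, and the deacetylase Sirt1 rose, with 0.39, 0.67, 1.41 and 0.64.

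Of 21 Polycomb genes 5 rose (6, 4, 5 and 3) and 4 fell (4, 2, 3 and 2). The repressive complex 1 subunits Phc1 and Phc2 averaged 0.82 ± 0.10 and 0.72 ± 0.09, while Cbx7, its main chromobox protein in stem cells, fell, with -0.27, -0.47, -0.63 and -0.76. The core of repressive complex 2 did not pass the test: Ezh2 was at -0.13 ± 0.09, Suz12 at 0.16 ± 0.08 and Eed at -0.04 ± 0.07. Of 24 genes of DNA and H3K9 methylation 6 rose (9, 3, 3 and 4) and 3 fell (3, 1, 4 and 2). The de novo methyltransferase Dnmt3a had 1.09, 0.73, 1.79 and 1.05, and Trim28, the corepressor that silences retroelements, 0.56, 0.74, 0.83 and 0.41, while Cbx3 (HP1γ) fell, with -0.77, -0.68, -0.72 and -0.64. Dnmt1, the maintenance enzyme, was at 0.06 ± 0.11 without a call.

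Myc, the growth regulator that also recruits Tip60-p400, had 1.07, 1.52, 1.75 and 1.73 and levels of 11.2 to 12.1 in knockdown against 10.1 to 10.4 in EGFP RNA. Mycn had 0.63, 0.88, 1.08 and 0.68. Of 13 genes of the network 5 rose (6, 3, 4 and 4) and 1 fell (1, 0, 2 and 1), with a median of 0.02. Under median centring 3 of the 13 rose and 6 fell, with a median of -0.26. Of 20 genes of ribosome biogenesis, classical Myc targets, 6 rose (5, 1, 2 and 1) and 1 fell (1, 0, 0 and 0), with a median of 0.10. Under median centring none of these 20 rose and 9 fell, with a median of -0.25. Of all 18691 genes 2882 rose and 6784 fell under that setting. Nucleolin (Ncl), nucleophosmin (Npm1) and fibrillarin (Fbl) were at 0.11 ± 0.07, -0.11 ± 0.09 and 0.15 ± 0.07 without a call. Among 32 ribosomal proteins 1 rose (1, 1, 1 and 0) and 3 fell (8, 2, 2 and 3), and the list's medians by array, 0.31, -0.33, 0.10 and -0.34, were positive on the Cy5 arrays and negative on the Cy3 arrays.

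Immune and death genes completed the lists. Of 23 interferon and nucleic acid sensing genes 8 rose (6, 3, 4 and 4) and 4 fell (5, 3, 3 and 3). The sensor Ddx58 (RIG-I) had 0.73, 0.51, 1.08 and 0.59 and the antiviral Mx2, above background in EGFP RNA on 1 of 4 arrays, 0.81, 1.40, 1.03 and 0.37, while Bst2 (tetherin) fell, with -0.52, -0.68, -0.80 and -0.66, and Ifitm1 fell, with -0.28, -0.99, -0.68 and -0.81. Isg15 was at 0.15 ± 0.07 and Ifih1 at 0.04 ± 0.08 without a call. Of 18 inflammatory genes 4 rose (2, 2, 2 and 3) and 3 fell (3, 1, 2 and 1), Il1rl1, the receptor of IL-33, with 1.23, 1.74, 1.96 and 0.62. Of 20 apoptosis regulators 2 rose (2, 1, 1 and 2) and 6 fell (5, 2, 4 and 4). Casp8, the initiator caspase of death receptors, had 1.06, 1.13, 1.40 and 0.77, and Birc2 (cIAP1), an inhibitor of that route, fell, with -0.70, -0.55, -0.58 and -0.49.

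Most of the deepest falls lay outside the lists. Lrrc34, a leucine-rich repeat protein of stem cell cultures, had -1.63, -1.39, -1.98 and -1.22, with levels of 10.9 to 11.5 in knockdown and 12.7 to 12.9 in EGFP RNA. Mgarp, a mitochondrial protein, averaged -1.43 ± 0.11, Efs, a docking protein of Src, -1.33 ± 0.11, and Klf15, a Krüppel-like factor of metabolism, -1.29 ± 0.13. St8sia1, a sialyltransferase of gangliosides, had -1.47, -1.35, -1.31 and -0.86 and Nkx6-3, a homeobox factor of the stomach, -1.12, -1.67, -1.45 and -0.62. Both were lower on all arrays and fell least on replicate 4. Marcks, an actin-binding substrate of protein kinase C, averaged -1.11 ± 0.12, Fabp3, a fatty acid binding protein, -1.06 ± 0.10, and Apobec1, the RNA editing enzyme, -0.98 ± 0.08. Of noncoding RNAs, Lockd, made beside Cdkn1b, had -0.68, -1.71, -1.27 and -1.14 and Firre, an X-linked nuclear RNA, -0.86, -0.90, -1.24 and -0.96. All 26 falls of at least 2-fold were in genes well above background in EGFP RNA on all 4 arrays.

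**Figure D5:**
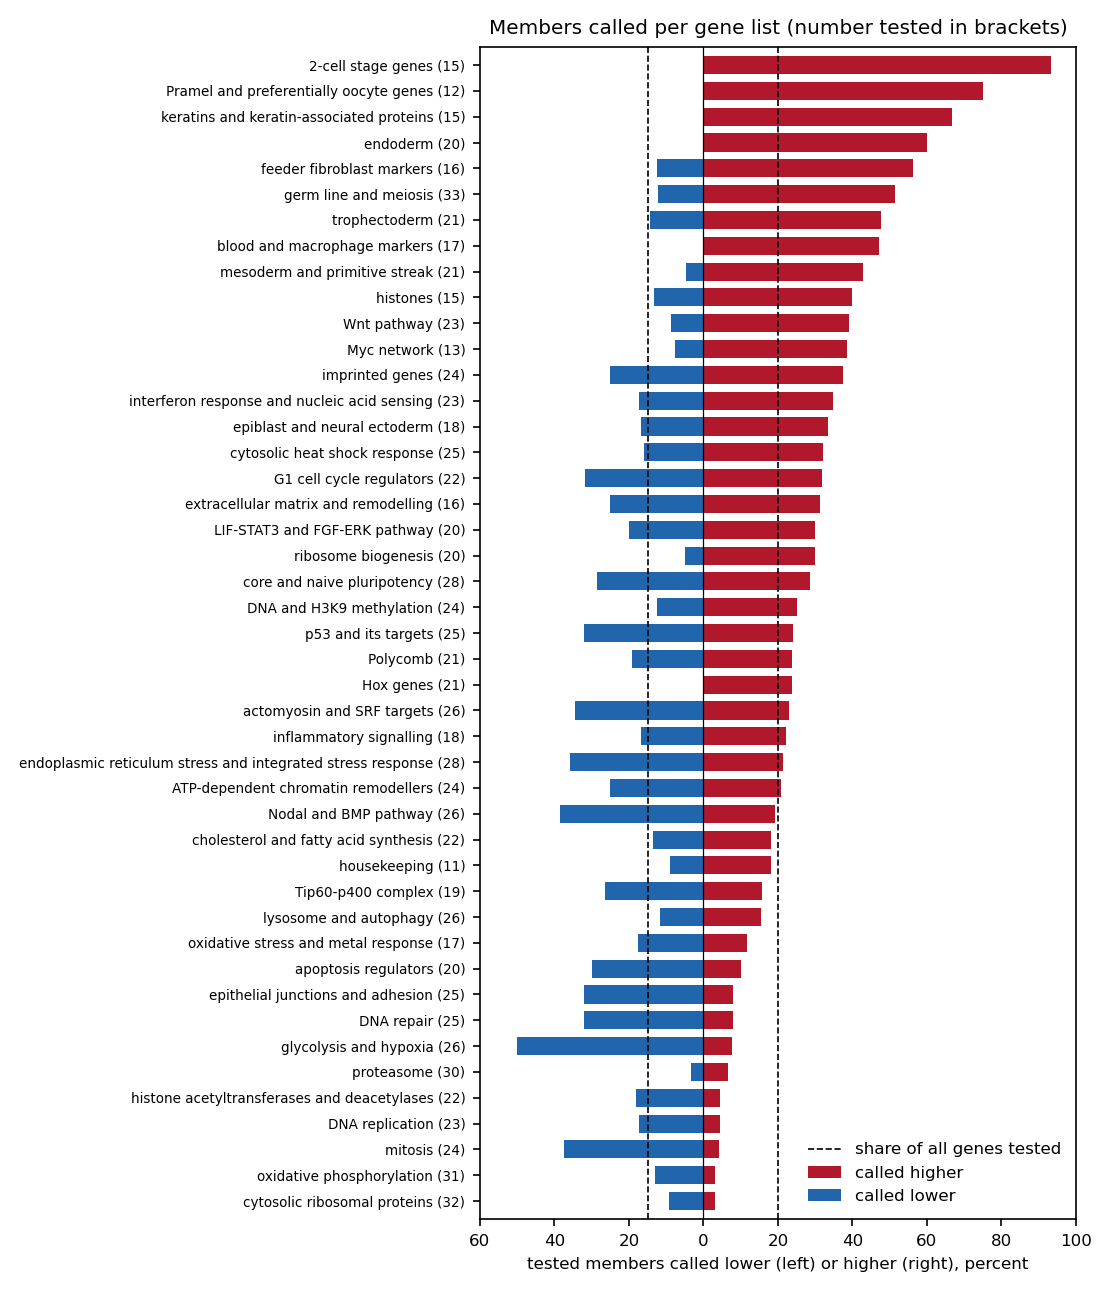
Percent of the tested members of each of 45 gene lists called higher (right) or lower (left) in p400 knockdown, with the share of all 18691 genes tested as dashed lines at 20.1% and 15.0%. The 2-cell list reaches 93.3% higher, and the list of glycolysis and hypoxia has the longest bar to the left, 13 of 26. Lists overlap in members and differ in size, and members are not replicates. Lists and members were chosen with earlier results of these data known.

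Some calls rested on arrays that split by dye. Among the called genes with the largest range over arrays, Pigt, a subunit of the GPI transamidase, had 3.28, -0.67, 2.28 and -0.33, Lars2, the mitochondrial leucyl-tRNA synthetase, 3.30, -0.54, 2.50 and -0.64, Grn, which encodes progranulin, 3.31, -0.08, 2.07 and -0.41, and Slc4a7, a bicarbonate transporter, 1.91, -0.10, 2.16 and -0.30. Each was near or below 0 on replicates 2 and 4 and above 1.5 on replicates 1 and 3. Their means of 1.14 ± 0.16, 1.15 ± 0.13, 1.22 ± 0.19 and 0.92 ± 0.08 were called in a fit whose dye term takes such a split out of the residual spread, and 339 called genes in all did not have the same sign on all 4 arrays. Several tested probes were available for 6520 genes. In 127 of these probes of 1 gene were called in opposite directions, in 478 all probes rose, in 479 all fell, in 2427 some were called in 1 direction and others not, and in 3009 none was called. A gene named here is represented by its brightest probe.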

How the data were processed

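Two-colour Agilent arrays were read from the scanner files, whose deposited mean spot and median background intensity was extracted with Feature Extraction 9.5.1.1, per the file headers. The deposited LogRatio is the log10 of red over green processed signal, per the file headers. The authors' matrix holds log2 ratios whose normalization is not given in the sources used here, and its signs show knockdown over EGFP on all 4 arrays (r with LogRatio of 0.816, -0.815, 0.823 and -0.797 on replicates 1 to 4). Intensities were background corrected (normexp, offset 50) and loess normalized within arrays in limma 3.58.1 under R 4.3.3. Control spots had weight 0, outlier spots marked by the scanner software were dropped, and replicate spots of a probe averaged. Levels per RNA came from Aquantile normalization.

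A probe was tested if well above background in either RNA on at least 3 arrays, and a gene is its brightest tested probe. Names came from RefSeq by accession (22944 probes), symbol (6664) or synonym (3108) or from the file (8458). The fit held a knockdown and a dye term. The arrays pair the RNAs, which share an array and a replicate number. Calls used Benjamini-Hochberg adjusted p below 0.05. The fit was also run on simulated log ratios with independent noise and few changed genes, whereas many genes were called here. No result above rests on that run. Probe positions are on mm7, per the file headers.

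The members and gene lists were chosen with earlier results of these data known. Named genes are Ep400, Kat5, the first 3 of each list, up to 5 largest rises and falls of each list, the 60 largest of all genes each way and the 10 of largest range, of which some are left out for length and some items are not reported here. Eif1a, Esrrb and Dppa5a were chosen after their values were seen. The alternatives are listed in the closing section. The series' single-colour arrays were not analysed here.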

Additional observations from a re-analysis of the deposited data

Results flagged for a closer look

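In 9 of the 236 genes named here (3.81%) 1 array stood apart from the other 3 by Dixon's test, a rate near the 1 in 20 that chance gives. Replicate 4 was the one apart in 5 of them and lay nearer to 0 each time. Clec10a stood at 2.99 there against 4.23 to 4.48 on the others, Olfr713 at 1.85 against 3.04 to 3.26, Rspo1 at 0.84 against 1.18 to 1.25, Tex101 at 0.59 against 1.204 to 1.324 and Lefty1 at -0.39 against -0.56 to -0.54. Replicate 3 lay farther from 0 in 2 genes: Rec8 at -0.92 against -0.48 to -0.41 and Nbn at -0.74 against -0.39 to -0.37. On replicate 2 Ddit3 stood at -0.79 against -0.53 to -0.51, and on replicate 1 Gpi1 at -0.19 against -0.93 to -0.85. All 9 were called, and no call was lost without the array that stood apart.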

How the results depend on the processing

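The counts of called genes moved by more than 1.5 times under some settings. The 3766 rises became 1881 with arrays scaled to a common spread and 1347 where a change of at least 1.5-fold was also required. The 2811 falls became 6784 under median centring, 4281 with the deposited LogRatio, 547 with scaled arrays and 428 at 1.5-fold. Rises of at least 2-fold (532) became 885 with a normexp offset of 0 and 1431 with LogRatio. Falls of at least 2-fold (26) became 44, 161, 374 and 13 with offset 0, median centring, LogRatio and scaled arrays. With 1 replicate left out the rises ranged from 1914 to 3207, the falls from 1228 to 2541, and 2-fold rises and falls from 410 to 694 and from 22 to 37; all of these were lowest without replicate 2 but the 2-fold falls, which were lowest without replicate 3. The share of rises among calls was 57.3%, against 29.8% under median centring, 77.5% with scaled arrays and 47.6% with LogRatio. Without the replicate block that pairs the RNAs of an array, 3752 genes rose and 2887 fell, and 7 named genes lost their call: Esrrb, Dppa5a, Cubn, Col4a1, Psmb8, Lars2 and Slc4a7. Without the dye term Sox2, Dppa5a, Pigt, Lars2, Grn and Slc4a7 lost theirs. Of the 205 called genes named here 90 kept their call under all 16 settings. None of the 205 changed sign under any setting. Of the 31 named genes without a call 22 changed sign under at least 1, and 3 of these were called in the new direction: Eif1a with the mean of probes (1.01), which adds its other probes, and Ddx4 (-0.27) and Ncl (-0.26) under median centring, where the cause was not tested. Smaller folds with the mean of probes were found for Hspa1a (3.10, which includes probes that match Hspa1b) and Grn (0.63) besides those given above. List counts that moved by more than 1.5 times without the replicate block, besides endoderm, included 5 in place of 8 falls for pluripotency and 4 in place of 7 rises for G1 regulators. Matrix genes had 3 in place of 5 rises and inflammatory genes 5 in place of 3 falls. Small counts moved too. Acetyltransferases and deacetylases had 3 rises in place of 1, the proteasome 4 falls in place of 1 and ribosomal proteins 2 rises in place of 1. Housekeeping genes had 1 rise in place of 2 and 2 falls in place of 1, and Hox genes 1 fall in place of 0. With 4 arrays the number of arrays limits precision. Ratios of some dim genes moved widely over the settings: Mx2 from 0.64 to 2.98, Dkk1 from 0.84 to 2.99 and Olfr815 from 2.28 to 4.81.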
